A study of Mus musculus with 6 samples.

Results

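Retinoid genes were followed in the embryonic mouse forebrain after injection of the growth factor FGF2. The 9 genes described, of 37991 in the deposited files, were picked by symbol: the carriers Rlbp1, Crabp1 and Crabp2, the synthesis enzymes Aldh1a2 and Aldh1a3, the breakdown enzyme Cyp26b1, and the receptors Rara, Rarb and Rxrg. They were chosen with their difference between FGF2 and vehicle embryos already known, so that difference is given as a description and supports nothing. No p-value is printed for it. Whether a gene of the 9 passed a threshold on adjusted p for that difference is likewise description only. All 9 passed the filter on low counts.

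Dorsal telencephalon of CD1 mouse embryos at E13.5, in front of the hippocampus, was the tissue in every library. FGF2 embryos 6, 7 and 8 had received 100 ng of FGF2 into the brain ventricles, and vehicle embryos 7, 8 and 9 had received PBS with 0.1% BSA. RNA came from formalin-fixed frozen coronal sections. The labels number the samples, each taken here as 1 embryo, and do not say whether litters were shared. The p-values set each group difference against the spread between these samples, treated as independent. They may be too small if litters were shared. How long after injection the tissue was collected was not stated in the labels.

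Cells take up vitamin A as retinol and oxidise it to retinaldehyde, and enzymes of the ALDH1A family oxidise that to retinoic acid. CRABP proteins bind retinoic acid in the cytoplasm, CYP26 enzymes degrade it, and RAR and RXR receptors bind DNA as pairs at response elements and switch genes on when the ligand is present. In the embryonic forebrain the meninges make retinoic acid with ALDH1A2 and the lateral ganglionic eminence makes it with ALDH1A3, and retinoic acid promotes the differentiation of striatal neurons.

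Rarb carries a well-known retinoic acid response element beside its start, shown here because Rarb was among the genes that differed. RefSeq windows of 300 bases (250 before to 50 after a start, GRCm38.p6) were matched by symbol for 7 of the 9 genes, and were not matched for Crabp2 and Aldh1a3. The element is a direct repeat of a 6-base site (the form AGGTCA, the form AGTTCA, the form GGGTCA or the form GGTTCA, searched on both strands) with 5 bases between the copies. Of the 11 windows of these 7 genes, only that of Rarb held it. The 113 bases of the Rarb gene strand that end just before the start (chr14:16575477-16575589, minus strand) are printed with the sites of the repeat in capitals, followed by the element alone (chr14:16575513-16575529, minus strand, 53 to 37 bases before the start) and by that of Cyp26a1, another retinoic acid-degrading enzyme, on the strand opposite to its gene (chr19:37697776-37697792, minus strand).
Rarb upstream: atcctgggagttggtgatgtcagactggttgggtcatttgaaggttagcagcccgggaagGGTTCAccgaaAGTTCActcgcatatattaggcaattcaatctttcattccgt
Rarb element: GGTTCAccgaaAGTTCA
Cyp26a1 element: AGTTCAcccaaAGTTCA

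The element was rare, found in 32 of 32841 RefSeq windows (0.0974%), while a single 6-base site occurred in 43.7% of them. Repeats with 2 bases between the copies, another known spacing, occurred in 88 windows (0.268%) and in none of the 11. Of the 61 other retinoid genes listed, the repeat with 5 bases between was found for Cyp26a1 alone. Listed genes without a window matched by symbol could not be searched. Cyp26a1 was scarce, at 0.332 ± 0.266 CPM (counts scaled to library depth) in FGF2 embryos and 0.23 ± 0.03 CPM in vehicle embryos (SD, n = 3 each), and was not called (edgeR adjusted p = 0.705). A match of letters does not show that a receptor was bound.

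Total counts over all genes ran from 64631136 to 81532334 in FGF2 libraries and from 61489462 to 68101511 in vehicle libraries. In vehicle 9 all counts were even numbers, and whether each of its reads was counted 2 times is not known. With its counts divided by 2, Aldh1a3 and Rxrg had log2 fold changes of 3.27 and 3.12, and the number of the 9 genes called was 4, as without that step. Reads of Y-linked genes numbered 10475 to 16232 in FGF2 6, 7 and 8 and in vehicle 7, but 22 in vehicle 8 and 22 in vehicle 9, so sex and agent are partly confounded. Of 10 dorsal pallium markers, none was at 0 and 4 fell in FGF2 embryos (Emx1, Pax6, Eomes and Neurog2), beside 0.951% of all genes called as lower. The 10 summed to 1921 to 2068 CPM in FGF2 embryos and 2852 to 3035 CPM in vehicle embryos. At an unadjusted edgeR p under 0.05, 9 of the markers were lower and 0 higher. Without any 1 vehicle embryo 2 of them were called (Emx1 and Eomes), and without FGF2 8 there were 8. With tissue sections, fewer cells of a type and less RNA per cell cannot be told apart.

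Expression of the 9 genes is given first as RPKM, reads scaled by gene length and by library depth, which allows levels of different genes to be compared. Differences are log2 fold changes of counts over each gene's whole span, FGF2 over vehicle, from an edgeR fit over 21983 genes. A gene is said to be called where its Benjamini-Hochberg adjusted p in that fit was at most 0.05. In that fit 3.63% of all genes were called, 2.68% as higher and 0.951% as lower. Among the 9 genes, 3 were called as higher (Aldh1a3, Rxrg and Rarb) and 1 as lower (Rlbp1). These calls describe genes that were chosen with this contrast known. The CPM of the groups did not overlap for 6 genes that were higher and 2 that were lower in FGF2 embryos, against 14.6% and 13.6% of all genes, or 28.2% in either direction. Crabp1 was the gene whose groups overlapped.

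**Figure D1:**
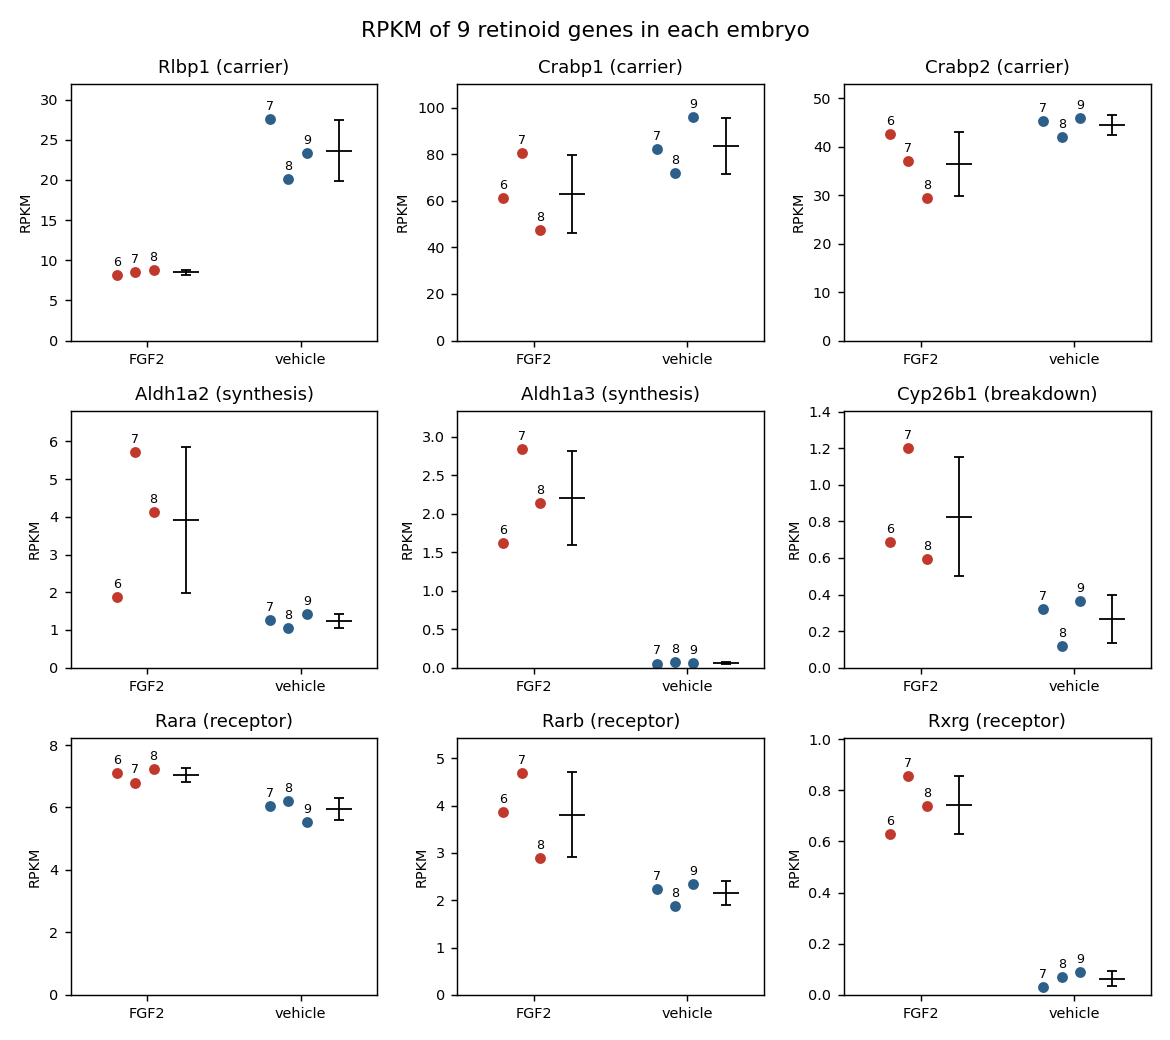
RPKM of each of the 9 genes, with 1 panel a gene, an axis from 0 in each panel, 1 numbered point an embryo, FGF2 left and vehicle right, and bars for the mean and SD of 3 embryos. Rlbp1 sits at 8.18 to 8.75 in FGF2 embryos and 20.1 to 27.6 in vehicle embryos, while Aldh1a3 sits at 1.62 to 2.84 in FGF2 embryos and 0.0542 to 0.0776 in vehicle embryos.

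Rlbp1 differed more than Crabp1 and Crabp2, the other carriers among the 9 genes. It encodes a retinaldehyde-binding protein best known from the retinal pigment epithelium and Müller glia, where it carries cis-retinoids (chromosome 7, 86519757 to 86531913, NCBIM37). Rlbp1 stood at 8.18, 8.5 and 8.75 RPKM in FGF2 embryos 6, 7 and 8, against 27.6, 20.1 and 23.3 RPKM in vehicle embryos 7, 8 and 9. Every FGF2 embryo was below every vehicle embryo, and the FGF2 embryos lay within 1.07-fold of each other. The log2 fold change was -1.49 ± 0.13 (SE), at 18.9 ± 1.97 CPM in FGF2 embryos and 53 ± 8.17 CPM in vehicle embryos (SD, n = 3 each). The call held when any single embryo was left out, with values of -1.58 to -1.36.

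The 2 cytoplasmic carriers of retinoic acid were the most abundant of the 9 genes and differed little. Crabp1 (chromosome 9, 54612555 to 54620917) stood at 61.1, 80.4 and 47.3 RPKM in FGF2 embryos, against 82.5, 71.9 and 96.1 RPKM in vehicle embryos. FGF2 7 lay within the vehicle range, and the other FGF2 embryos lay below it. Crabp2 (chromosome 3, 87752588 to 87757298) stood at 42.6, 37.1 and 29.4 RPKM in FGF2 embryos, against 45.2, 42 and 45.9 RPKM in vehicle embryos. On this scale FGF2 6 was just above vehicle 8, whereas the CPM of the groups did not overlap. The log2 fold changes were -0.47 ± 0.19 for Crabp1 and -0.34 ± 0.12 for Crabp2 (SE), and neither gene was called.

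The vehicle embryos held little RNA of the enzymes that make retinoic acid. Aldh1a2, the main retinoic acid-making enzyme of the early embryo and of meninges (chromosome 9, 71063596 to 71144050), stood at 1.87, 5.72 and 4.13 RPKM in FGF2 embryos, against 1.26, 1.05 and 1.42 RPKM in vehicle embryos. The groups did not overlap, but FGF2 6 was close to the vehicle embryos and FGF2 7 was 3.06-fold above it. Its log2 fold change was 1.63 ± 0.39 (SE), and it was not called. Without FGF2 6 it was called, at 1.98.

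Aldh1a3, which makes retinoic acid in the eye and the lateral ganglionic eminence (chromosome 7, 73535778 to 73572403), stood at 1.62, 2.84 and 2.14 RPKM in FGF2 embryos, against 0.0542, 0.0776 and 0.0551 RPKM in vehicle embryos. In vehicle embryos its RPKM overlapped that of Rxrg at the low end of the 9 genes, and no vehicle embryo came near an FGF2 embryo. Over the whole gene span, 685, 974 and 706 reads were counted in FGF2 embryos, against 99, 88 and 20 in vehicle embryos. Its log2 fold change was 3.33 ± 0.52 (SE), at 11 ± 2.79 CPM in FGF2 embryos and 1.08 ± 0.681 CPM in vehicle embryos (SD, n = 3 each). It was not called without FGF2 7, FGF2 8 or vehicle 8, with values of 3.13, 3.33 and 3.50.

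The size of the Aldh1a3 difference depended on the unit. Mean RPKM was 35.3-fold higher in FGF2 embryos, against 10.1-fold for span CPM. The CPM of the span per unit of RPKM was 5.03, 4.84 and 5.12 in FGF2 embryos, and 29.9, 17 and 5.76 in vehicle 7, 8 and 9. Vehicle 7 and vehicle 8 thus had more span reads for their RPKM than the other 4 libraries. Span counts include introns, and the source of these reads was not tested. The ratio also varied for Rarb, at 4.88, 3.8 and 6.38 in FGF2 embryos and 4.59 to 4.65 in vehicle embryos, and for Rxrg, at 2.4 to 2.69 in FGF2 embryos and 2.17 to 4.43 in vehicle embryos. For Rlbp1 it stayed between 2.1 and 2.42 over the 6 libraries.

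**Figure D2:**
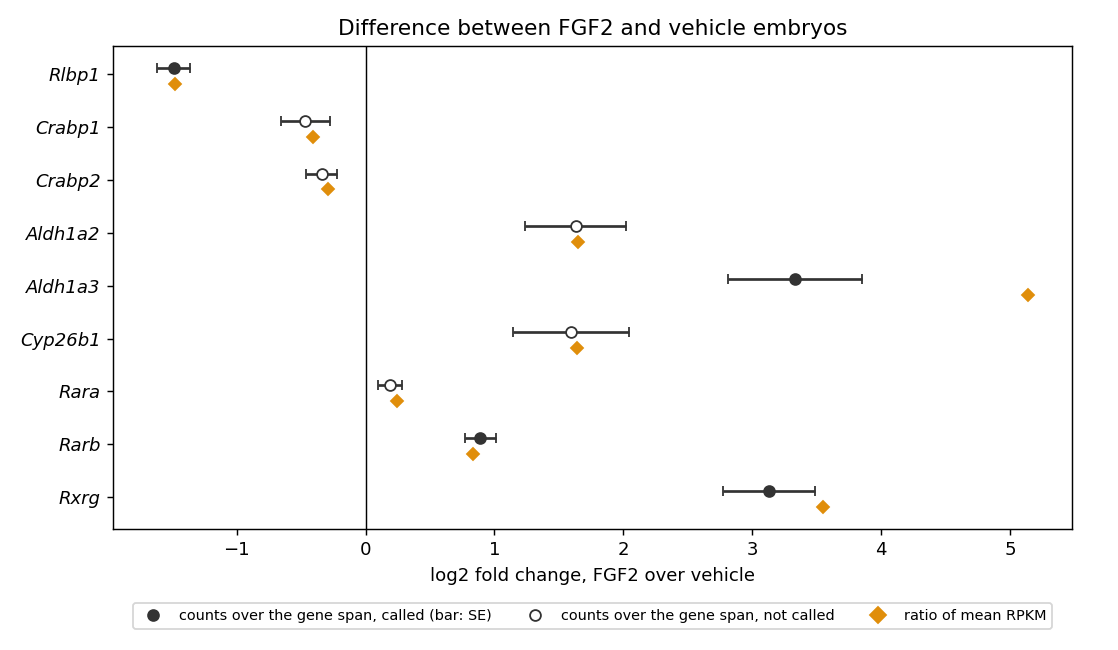
Log2 fold change of each gene, FGF2 over vehicle, from counts over the gene span (circles, filled where called, with bars for the SE) and from the ratio of mean RPKM (diamonds). The measures lie farthest apart for Aldh1a3, at 3.33 from span counts and 5.14 from RPKM.

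Cyp26b1, which oxidises retinoic acid to inactive products (chromosome 6, 84521938 to 84543740), stood at 0.687, 1.2 and 0.593 RPKM in FGF2 embryos, against 0.319, 0.117 and 0.362 RPKM in vehicle embryos. The groups did not overlap, and FGF2 7 was again the highest embryo. The log2 fold change was 1.59 ± 0.45 (SE), from 265, 424 and 198 reads in FGF2 embryos and 105, 39 and 110 reads in vehicle embryos, and the gene was not called. Aldh1a2, Aldh1a3, Cyp26b1 and Rxrg all had their highest value in FGF2 7, as did Rarb in RPKM. Crabp1, with a lower mean in FGF2 embryos, was also highest in FGF2 7 among those embryos.

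Among the receptors, Rara, a widely expressed retinoic acid receptor (chromosome 11, 98789132 to 98836256), hardly differed. It stood at 7.09, 6.8 and 7.23 RPKM in FGF2 embryos, against 6.05, 6.22 and 5.55 RPKM in vehicle embryos. Its log2 fold change of 0.19 ± 0.09 (SE) was small although the groups did not overlap, and it was not called. The span of Rara also holds a U6 copy.

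Rarb, a receptor that is itself induced by retinoic acid through the element printed above and is expressed in the striatal primordium (chromosome 14, 17263356 to 17651381), stood at 3.86, 4.68 and 2.89 RPKM in FGF2 embryos, against 2.24, 1.87 and 2.34 RPKM in vehicle embryos. All FGF2 embryos were above all vehicle embryos, with FGF2 8 nearest to them. On span CPM the FGF2 embryos lay closer together, at 18.9, 17.8 and 18.4, against 10.3, 8.66 and 10.9 in vehicle embryos. The log2 fold change was 0.89 ± 0.12 (SE). Rarb was not called without vehicle 7 (0.91), and on log2(RPKM + 1), where its value was 0.60, it was not called either.

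Rxrg, a partner receptor found in striatal neurons, pituitary and muscle (chromosome 1, 169528515 to 169569754), stood at 0.629, 0.856 and 0.74 RPKM in FGF2 embryos, against 0.0314, 0.0709 and 0.0877 RPKM in vehicle embryos. These values rest on 127, 153 and 128 reads in FGF2 embryos and on 8, 21 and 12 reads in vehicle embryos, and the groups lay far apart. Its log2 fold change was 3.13 ± 0.36 (SE), and it was called in each fit without 1 embryo, at 2.88 to 3.53. With embryo sex as a covariate it was not called, at 3.83, nor were Aldh1a3 and Rarb, at 2.76 and 0.84. By Y-linked reads, that fit sets the FGF2 embryos against vehicle 7 alone, so it cannot decide whether sex accounts for these differences.

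The order of the levels was the same in both groups for the 4 most abundant genes and differed below them. In RPKM, Crabp1 was above Crabp2, Crabp2 above Rlbp1 and Rlbp1 above Rara, with no overlap between neighbours among FGF2 embryos or among vehicle embryos. In FGF2 embryos Aldh1a2 and Rarb overlapped in the fifth and sixth places, as did Cyp26b1 and Rxrg at the low end. In vehicle embryos Rxrg and Aldh1a3 overlapped at the low end. Aldh1a3 was in the seventh place in FGF2 embryos, where its 1.62 to 2.84 RPKM overlapped the 1.87 to 5.72 RPKM of Aldh1a2.

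Set beside their own families, Aldh1a3, Rarb and Rxrg took larger shares in FGF2 embryos, and none of them was the most abundant form there. Aldh1a3 made up 33.4 ± 1.02% of the summed RPKM of Aldh1a1, Aldh1a2 and Aldh1a3 in FGF2 embryos and 4.77 ± 1.52% in vehicle embryos (SD, n = 3 each). Aldh1a2 made up 56.5 ± 14.7% in FGF2 embryos and 92.8 ± 4.18% in vehicle embryos. The summed RPKM of these 3 enzymes was 6.63 ± 2.05 in FGF2 embryos and 1.34 ± 0.144 in vehicle embryos. The share of Aldh1a1 was uneven, at 26.1%, 2.57% and 1.59% in FGF2 6, 7 and 8, and it stood at 2.23, 0.409 and 0.187 CPM there, against 0.0491, 0.12 and 0 CPM in vehicle embryos. Rarb was 19.2 ± 2.08% of the summed RPKM of the RAR genes in FGF2 embryos and 13.3 ± 1.32% in vehicle embryos. Rxrg was 2.9 ± 0.433% of the summed RPKM of the RXR genes in FGF2 embryos and 0.238 ± 0.102% in vehicle embryos, and that sum was 25.6 ± 1.19 RPKM in FGF2 embryos and 26.3 ± 1.08 RPKM in vehicle embryos.

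**Figure D3:**
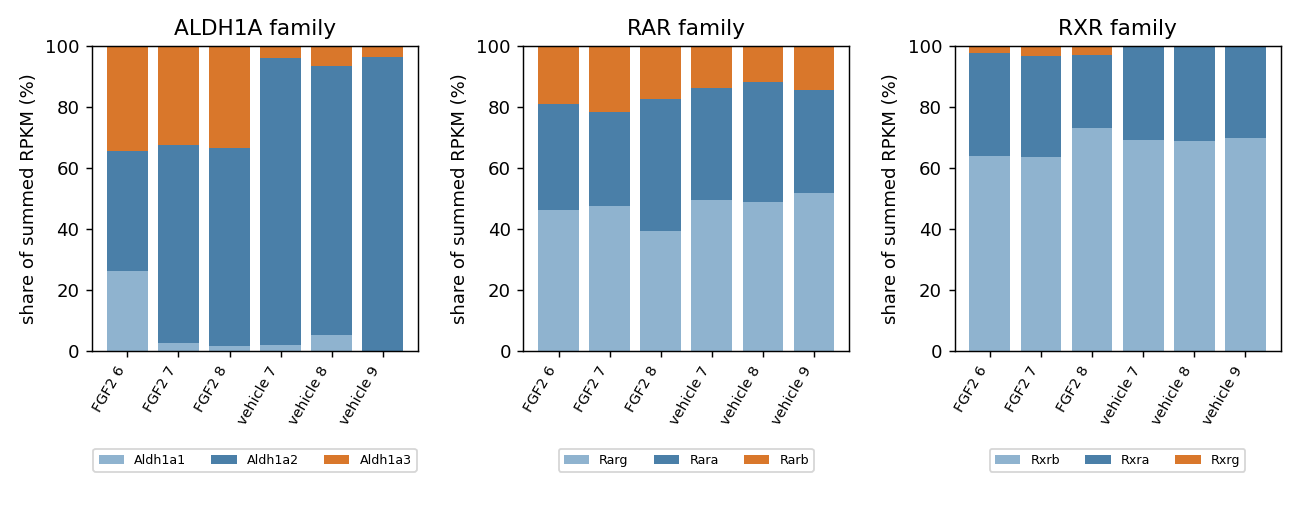
Share of the summed RPKM of each family that each gene takes, in percent, 1 bar an embryo. The Aldh1a3 share is 32.3% to 34.3% in FGF2 embryos and 3.73% to 6.52% in vehicle embryos, and the Rxrg share is at most 3.23% in any embryo.

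Other genes of the pathway were listed by role, 61 in all, with earlier results of these data known but not by how each gene moved. Of the 47 that passed the filter on low counts, 6 rose, 0 fell and 41 were not called with edgeR's quasi-likelihood test, which is 12.8% called beside 3.63% of all genes. At an unadjusted p under 0.05, 10 were higher and 3 lower, and DESeq2 called 8 as higher and 3 as lower. The list's median log2 fold change was 0.00, beside 0.01 for all genes tested. The count fell to 3 without FGF2 7, vehicle 8 or vehicle 9, and to 1 without vehicle 7.

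Among carriers and uptake genes, 2 of 6 tested rose. Stra6, the membrane receptor that takes up retinol, stood at 20.1, 20.7 and 17.3 CPM in FGF2 embryos, against 11.8, 11.4 and 11.4 CPM in vehicle embryos (log2 fold change 0.75 ± 0.11 SE, edgeR adjusted p = 0.0119). Its span overlaps those of Ccdc33 and Gm16131, so its reads cannot be told from theirs. Ttr, which carries thyroxine and the retinol-binding protein and is also a choroid plexus marker, was uneven, at 192 ± 176 CPM in FGF2 embryos and 0.287 ± 0.181 CPM in vehicle embryos (adjusted p = 0.0107). Fabp5, a fatty acid carrier that also binds retinoic acid, was at 143 ± 25 CPM in FGF2 embryos and 138 ± 18.5 CPM in vehicle embryos and was not called.

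Among the enzymes of retinol and retinaldehyde, 1 of 18 tested rose and 0 fell with edgeR (4 higher and 1 lower at an unadjusted p under 0.05). That is 5.56% called, near the 3.63% of all genes. The gene that rose was Dhrs3, which reduces retinaldehyde back to retinol, at 7.26, 10.7 and 10.4 CPM in FGF2 embryos, against 5.56, 4.91 and 5.05 CPM in vehicle embryos (log2 fold change 0.87 ± 0.18 SE, adjusted p = 0.0439). Adh5 and Dhrs4 had the highest mean RPKM of those not called. They stood at 121 ± 2.72 and 29.1 ± 1.88 CPM in FGF2 embryos, against 117 ± 3.23 and 33.4 ± 1.98 CPM in vehicle embryos. Cyp26c1, the other breakdown gene listed, did not pass the filter, at 0.0727 ± 0.0518 CPM in FGF2 embryos and 0.168 ± 0.121 CPM in vehicle embryos.

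No receptor or cofactor outside the 9 genes was called, of 9 tested with edgeR (0 higher and 1 lower at an unadjusted p under 0.05). Over all genes 3.63% were called, so none among so few is not unusual. Rxrb, the most abundant RXR gene, stood at 61.8 ± 2.75 CPM in FGF2 embryos and 67.5 ± 2.37 CPM in vehicle embryos.

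Of 13 tested genes known as retinoic acid targets in some tissue, 3 rose. Zfp503, a zinc finger gene of the developing striatum, was at 39.3, 53.5 and 39.3 CPM in FGF2 embryos, against 6.33, 8.03 and 8.54 CPM in vehicle embryos (log2 fold change 2.53 ± 0.17 SE, edgeR adjusted p = 0.00128). Its call held without any single embryo. Nrip1, a nuclear receptor co-repressor, was at 24, 25.5 and 22.6 CPM in FGF2 embryos, against 13.4, 15.5 and 13.8 CPM in vehicle embryos (0.76 ± 0.10 SE, adjusted p = 0.00994). Meis1, a homeobox gene, was at 35.1 ± 3.36 CPM in FGF2 embryos and 16.9 ± 4.58 CPM in vehicle embryos (adjusted p = 0.0345), over a span that also holds Gm16140 and Gm16141. Meis2, also a homeobox gene, was at 338 ± 48.7 CPM in FGF2 embryos and 343 ± 24.2 CPM in vehicle embryos and was not called. Leaving out single embryos ended the calls of Ttr (vehicle 7), Nrip1 (vehicle 7 or 9), Stra6 and Dhrs3 (FGF2 7 or any vehicle embryo) and Meis1 (any but vehicle 9), with edgeR adjusted p reaching 0.0627, 0.0679, 0.084, 0.194 and 0.101 in that order.

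**Figure D4:**
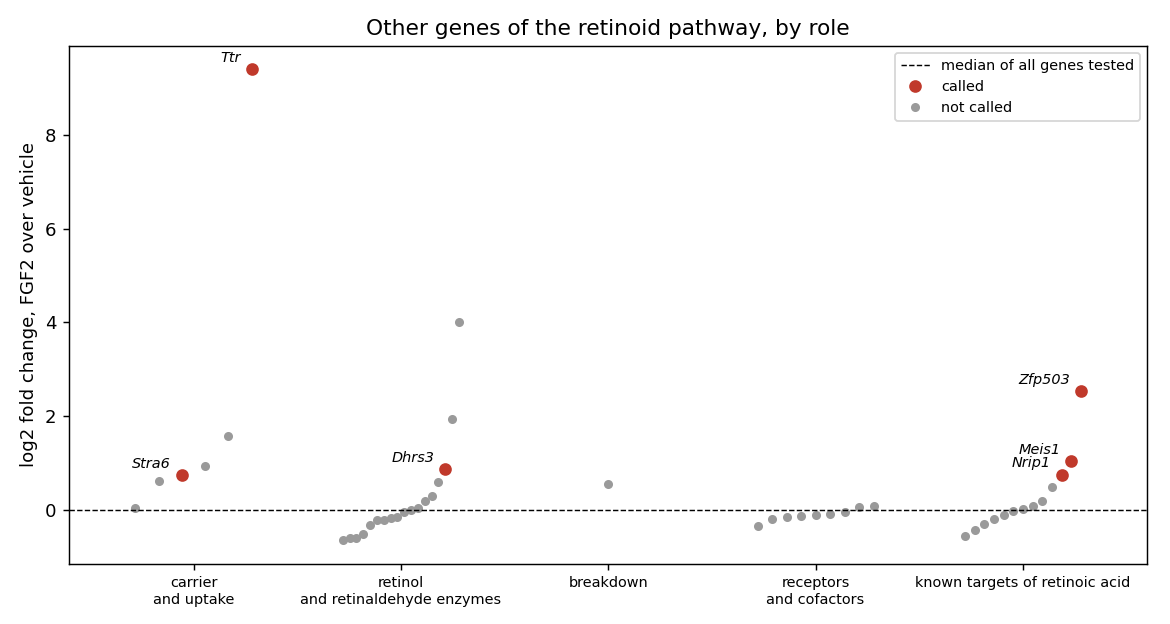
Log2 fold change, FGF2 over vehicle, of the 47 tested genes of the pathway outside the 9, 1 point a gene, grouped by role, with called genes in red and a dashed line at the median of all genes tested. Called genes lie above the line in 3 of the roles, and most points lie near it.

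Markers of other tissues moved with the agent as well. Each count of called markers below is to be read beside 2.68% of all genes called as higher and 0.951% as lower. Of 10 markers of the lateral ganglionic eminence and striatum, where Aldh1a3, Rarb and Rxrg are known to be expressed, 4 rose and 0 fell, beside 3.63% of all genes called (7 higher and 0 lower at an unadjusted p under 0.05), with a summed level of 413 to 584 CPM in FGF2 embryos and 89.8 to 145 CPM in vehicle embryos. Those called were Isl1, Ebf1, Six3 and Dlx5, the most abundant were Dlx1 and Ebf1, and none was at 0 in a whole group. The count was 2 (Isl1 and Ebf1) without FGF2 6, FGF2 7, vehicle 7 or vehicle 8, 3 without FGF2 8 and 6 without vehicle 9. Isl1 stood at 31.6, 30.2 and 36.6 CPM in FGF2 embryos, against 0.409, 0.479 and 0.317 CPM in vehicle embryos. Their part in the retinoid differences was not tested.

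Meningeal markers were listed because Aldh1a2 is known to be expressed there. Of 12, 1 rose (Foxd1), 2 fell (Col1a1 and Col1a2) and none was at 0 (2 higher and 3 lower at an unadjusted edgeR p under 0.05). The summed level, mostly Col1a1 and Col1a2, was 2262 to 2546 CPM in FGF2 embryos and 3605 to 4139 CPM in vehicle embryos. That sum follows the collagens, and the list as a whole did not fall. Its median log2 fold change was 0.05, with 7 of the 12 markers above 0 and 5 below. Foxd1, a transcription factor of the meninges and other mesenchyme, was at 16.7, 22.1 and 11 CPM in FGF2 embryos, against 8.29, 7.12 and 7.3 CPM in vehicle embryos, and it was called in the fit without FGF2 8 but in no other fit without 1 embryo. Col1a2 was not called without FGF2 7, vehicle 7 or vehicle 9. Of 10 markers of the retina and pigment epithelium, where Rlbp1 is best known, 6 were tested, 1 fell (Dct) and 0 rose (2 higher and 1 lower at an unadjusted p under 0.05), with a summed level of 19.7 to 30.6 CPM in FGF2 embryos and 28.4 to 49.7 CPM in vehicle embryos. Dct made up most of that sum in vehicle embryos, and the other 9 markers summed to 15.8, 7.96 and 8.85 CPM in FGF2 embryos, against 4.73, 3.84 and 5.14 CPM in vehicle embryos, so the direction turns without it. Dct and Mitf were the most abundant, and Rax had no read in vehicle embryos. Dct was not called without FGF2 7, FGF2 8 or vehicle 7, and without FGF2 8 Pmel, Rax and Six6 were called as higher. Their part in the differences of Aldh1a2 and Rlbp1 was not tested.

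Choroid plexus markers summed to 190 to 514 CPM in FGF2 embryos and 32.6 to 35.4 CPM in vehicle embryos, led by Ttr and Otx2 (7 of 10 rose and 1, Aqp1, fell). At an unadjusted edgeR p under 0.05, 8 choroid plexus markers were higher and 1 lower, and 6 diencephalon markers were higher and 0 lower. Without vehicle 7, 4 choroid plexus markers rose, and Aqp1 was not called without FGF2 7 or any vehicle embryo. Diencephalon markers summed to 125 to 294 CPM in FGF2 embryos and 77.6 to 86.2 CPM in vehicle embryos, led by Tcf7l2 and Lhx9 (4 of 8 rose, but 1, Olig3, without FGF2 8 or any vehicle embryo, and 2 without FGF2 6). Microglia markers, led by Csf1r and C1qb, summed to 95 to 110 CPM in FGF2 embryos and 61.2 to 74.9 CPM in vehicle embryos (C1qb and Fcrls of 6 rose, but 0 without FGF2 7 or any vehicle embryo, 1 without FGF2 6 and 4 without FGF2 8, while 6 were higher at an unadjusted p under 0.05 with edgeR on all embryos). No endothelial, red blood cell or surface ectoderm marker was called with edgeR, of 7, 7 and 5, and 1 of each list was higher at an unadjusted p under 0.05. Endothelial markers, led by Cdh5 and Kdr, summed to 210 to 237 CPM in FGF2 embryos and 195 to 221 CPM in vehicle embryos. Red blood cell markers, led by Hba-a1 and Hbb-y, summed to 2383 to 4118 CPM in FGF2 embryos and 2045 to 2973 CPM in vehicle embryos. Surface ectoderm markers, led by Krt5 and Krt14, summed to 62.7 to 101 CPM in FGF2 embryos and 75.2 to 105 CPM in vehicle embryos. Their part in the retinoid differences was not tested.

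Likeness of pattern was measured for Rlbp1 and Rarb as the root mean square difference of centred log2(CPM + 0.1) over the 6 libraries, among 17398 genes averaging 1 CPM or more. Nearest to Rlbp1 were Slc16a14, Cdon and Gna14, at 0.0743, 0.19 and 0.207, and nearest to Rarb were Naaa, Parp8 and Hfe, at 0.0478, 0.0769 and 0.0796. The log2 fold changes of these genes lay between -1.85 and -1.33 for Rlbp1 and between 0.90 and 0.91 for Rarb. The measure covers both groups of the same 6 libraries. A similar fold change thus follows from how these genes were picked and supports nothing.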

How the data were processed

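The deposited count files give whole-number counts of alignments over each Ensembl gene span, introns included, in the layout of bedtools coverage. The deposited RPKM files, per the authors' file naming, give RPKM per symbol, joined by symbols that occur once. The submitters' processing notes name bedtools 2.12.0, Bowtie2 2.1.0.0, TopHat2 2.0.9 and CASAVA 1.8 and the build NCBIM37, without their roles. Whether counting used strand was not stated. The deposited fraction of each span that is covered, and the covered bases, were not used. Spans matched GENCODE M21 gene lengths as end minus start for 21746 of 32919 genes and as end minus start plus 1 for 420, so 1 was added to each start.

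Counts were fitted with edgeR 4.0.16 in R 4.3.3 (filterByExpr, TMM, glmQLFit with robust estimation, glmQLFTest) on the 6 libraries without covariates, adjusting over 21983 genes. The SE is the log2 fold change divided by the root of the F statistic. CPM uses TMM library sizes. The fit was tested on simulated data. Members and lists were chosen with earlier results of these data known. Named genes were the 9, every called pathway gene, the 2 most abundant uncalled ones of each role by mean RPKM, the 2 most abundant markers of each list and markers at 0, and the 3 genes nearest in pattern; Aldh1a1 and the called markers outside this rule were named after their values were seen, and some genes under the rule are not reported here. Alternatives, 18 planned and 1 added after seeing the data, used limma 3.58.1 and DESeq2 1.42.0 as well. Marker counts without each embryo and the retinal sum without Dct were also chosen after seeing the data.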

Additional observations from a re-analysis of the deposited data

How the results depend on the processing

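No alternative reversed the direction of any of the 9 genes, and the call of Rlbp1 held in all 19. With DESeq2 and with the replicate block Aldh1a2 (1.62 and 2.07) and Cyp26b1 (1.59 and 2.08) were called too. With embryo sex as a covariate, Aldh1a3, Rarb and Rxrg were not called (2.76, 0.84 and 3.83), 1 member, 0 other pathway genes (6 higher and 3 lower at an unadjusted p under 0.05 with edgeR) and 5 genes in all were. By Y-linked reads, vehicle 7 was the only vehicle embryo of the same sex as the FGF2 embryos. The difference in the fit with sex thus rests on the FGF2 embryos against vehicle 7 alone. Calls lost in it do not show that sex accounts for the differences, which was not tested. On log2(RPKM + 1) and log2(RPKM + 0.1), 2 of the 7 members that passed were called in each (Rlbp1 and Aldh1a3), and 432 and 431 genes in all. Without a low-value filter log2(RPKM + 1) called 271 genes and 3 other pathway genes. Genes called in all numbered 799 (590 higher and 209 lower), 2145 with DESeq2, 2259 with voom and sample quality weights, and 488 among genes overlapping no other span, where fewer genes were tested. Other pathway genes called numbered 11 with DESeq2 and 3 among genes overlapping no other span. Leaving out 1 embryo gave 218 to 1943 genes (the highest without FGF2 8, at 964 higher and 979 lower), 3 to 5 members and 1 to 7 other pathway genes. The embryo numbers as a replicate block gave 703, 6 and 4. Numbers 6 and 9 occur in 1 library each, so in that fit the difference rests on embryos 7 and 8 of each group. FGF2 6 and vehicle 9 do not enter it. Same-numbered embryos deviated from their group means with correlations of -0.0486 and -0.0163, and nothing in the labels pairs them. The cause of these changes was not tested. Depth limits Aldh1a3 and Rxrg in vehicle embryos, which rest on 20 to 99 and on 8 to 21 reads, those of vehicle 9 possibly counted 2 times.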
